A study of Mus musculus with 6 samples.

Results

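Autophagy machinery and the MiT/TFE transcription factors were examined as 42 named genes out of the 54532 genes of the deposited liver count table. The genes were chosen by name for their place in the pathway, with earlier results of these data known, and all 42 were among the 15449 genes with enough counts to be tested. The livers came from 3 g*Spns1*-cKO mice and 3 controls, with 1 RNA-Seq library per mouse. The g*Spns1*-cKO mice carried floxed *Spns1* (loxP sites around exon 3) and the ubiquitous, tamoxifen-inducible Rosa26Cre-ERT2, and received 50 mg/kg of tamoxifen on postnatal days 11, 13 and 15. Controls were floxed littermates without Cre according to the study's methods, while the labels call them wild type. Neither the age at collection nor whether the controls received tamoxifen is given in the sources used here. Because this Cre is expressed throughout the body, the deletion was not limited to hepatocytes or to the liver. *Spns1* encodes a lysosomal transporter of lysophospholipids.

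Autophagy delivers cytoplasmic material to the lysosome. The ULK kinase complex starts the process, the class III phosphatidylinositol 3-kinase marks the growing membrane, and ATG9 and the ATG2 proteins bring lipid to it. Ubiquitin-like conjugation then attaches the ATG8 proteins (LC3 and GABARAP) to the membrane, where receptors bring in cargo, and RAB7 takes part in fusion with the lysosome. The MiT/TFE factors TFEB, TFE3, MITF and TFEC bind a short DNA element called CLEAR, found near many lysosome and autophagy genes, and TFEB and TFE3 move to the nucleus when the lysosome is disturbed. That movement is a change of protein location, which RNA counts do not measure.

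In the g*Spns1*-cKO livers, transcripts of the core machinery were mostly lower or did not pass the test. Of the 4 MiT/TFE genes, *Tfec* and *Mitf*, the 2 members with the lowest levels in controls, were higher. *Tfeb* was lower and *Tfe3* did not pass the test. Of the 42 genes, 23 were lower, 3 were higher and 16 did not pass an adjusted p of 0.05 in edgeR's quasi-likelihood test. The lower genes made up 54.8% of the members against 20.5% of all genes tested, and the higher genes 7.14% against 21.3%. Most members are well expressed, and in a comparison chosen after seeing the data, 23 of the 39 with a mean CPM of 10 or more were lower (59.0%, against 31.5% of all such genes) and 1 was higher (2.56%, against 13.7%). The largest falls were those of *Map1lc3a*, which encodes LC3A, the initiation kinase *Ulk2* and the receptor *Calcoco1*. The higher genes were *Tfec*, *Mitf* and the protease gene *Atg4c*. Over the 42 genes the log2 fold change ran from -1.52 to 1.74 with a median of -0.41.

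Whether the members fell, and by how much, depended on how the libraries were scaled. The trimmed mean of M-values (TMM), which was used for CPM (counts per 1e6 of the scaled library size) and fold changes unless stated otherwise, gave scaling factors of 0.834 to 0.873 for the controls and 1.157 to 1.177 for the g*Spns1*-cKO libraries. Over all genes tested, the log2 fold changes had a median of 0.014 with TMM, 0.14 with upper-quartile factors and 0.46 with library size only. The members' median was -0.41, -0.28 and 0.033 in turn, or -0.42 relative to all genes tested each time. That agreement is fixed by construction, since a change of scaling shifts all genes by nearly the same amount. Relative to the 8010 better expressed genes (mean CPM of 10 or more), whose median was -0.15 with TMM, the members' median was -0.26. With library size only, 6 members were lower (14.3%, against 6.28% of all genes tested) and 9 were higher (21.4%, against 47.2%). With upper-quartile factors 17 were lower (background 14.5%) and 3 were higher (background 26.6%).

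A total of 9 members passed the test as higher or lower under all 3 scalings. *Atg4c*, *Mitf* and *Tfec* were higher, and *Ulk2*, *Atg101*, *Atg2a*, *Wipi2*, *Map1lc3a* and *Calcoco1* were lower. A further 11 genes were lower with TMM and with upper-quartile factors, namely *Atg4d*, *Atg5*, *Atg9a*, *Atg12*, *Atg13*, *Atg14*, *Pik3c3*, *Wipi1*, *Gabarapl2*, *Optn* and *Tfeb*. Lower with TMM alone were the 6 genes *Atg3*, *Atg7*, *Becn1*, *Map1lc3b*, *Tax1bp1* and *Ulk1*, and all of these except *Ulk1* lay at 0.02 to 0.13 with library size only. Another 6 genes, *Atg2b*, *Pik3r4*, *Uvrag*, *Rubcn*, *Rab7* and *Tfe3*, passed the test only with library size, where they were higher. The last 10, *Atg4a*, *Atg4b*, *Atg10*, *Atg16l1*, *Atg16l2*, *Rb1cc1*, *Gabarap*, *Gabarapl1*, *Sqstm1* and *Nbr1*, passed under none. With TMM and a fold of at least 1.5 added to the threshold, 9 members were lower (background 11.9%) and 2 were higher (background 17.6%). The CPM of the groups did not overlap for 27 members that were lower in every g*Spns1*-cKO liver (background 26.9%) and for 3 that were higher in every one (background 27.1%).

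With 1 library left out at a time, 15 of the 26 members past the threshold with TMM still passed in every fit and 11 missed it in some. Without g*Spns1*-cKO replicate 3, *Atg3* (-0.39), *Atg7* (-0.34), *Atg9a* (-0.42), *Wipi1* (-0.43), *Map1lc3b* (-0.39) and *Mitf* (0.80) missed the threshold. *Map1lc3b* (-0.36 and -0.42) and *Ulk1* (-0.42 and -0.47) also missed it without control replicate 2 and without control replicate 3, and *Ulk1* (-0.32) without g*Spns1*-cKO replicate 2. The calls of *Becn1* (-0.25 to -0.45) and *Tax1bp1* (-0.27 to -0.37) held in 1 of the 6 fits each, without control replicate 1 for *Becn1* and without g*Spns1*-cKO replicate 1 for *Tax1bp1*. The other such genes were *Atg4d*, without g*Spns1*-cKO replicate 1 (-0.75) or 3 (-0.68), and *Tfeb*, without control replicate 2 (-0.41).

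**Figure D1:**
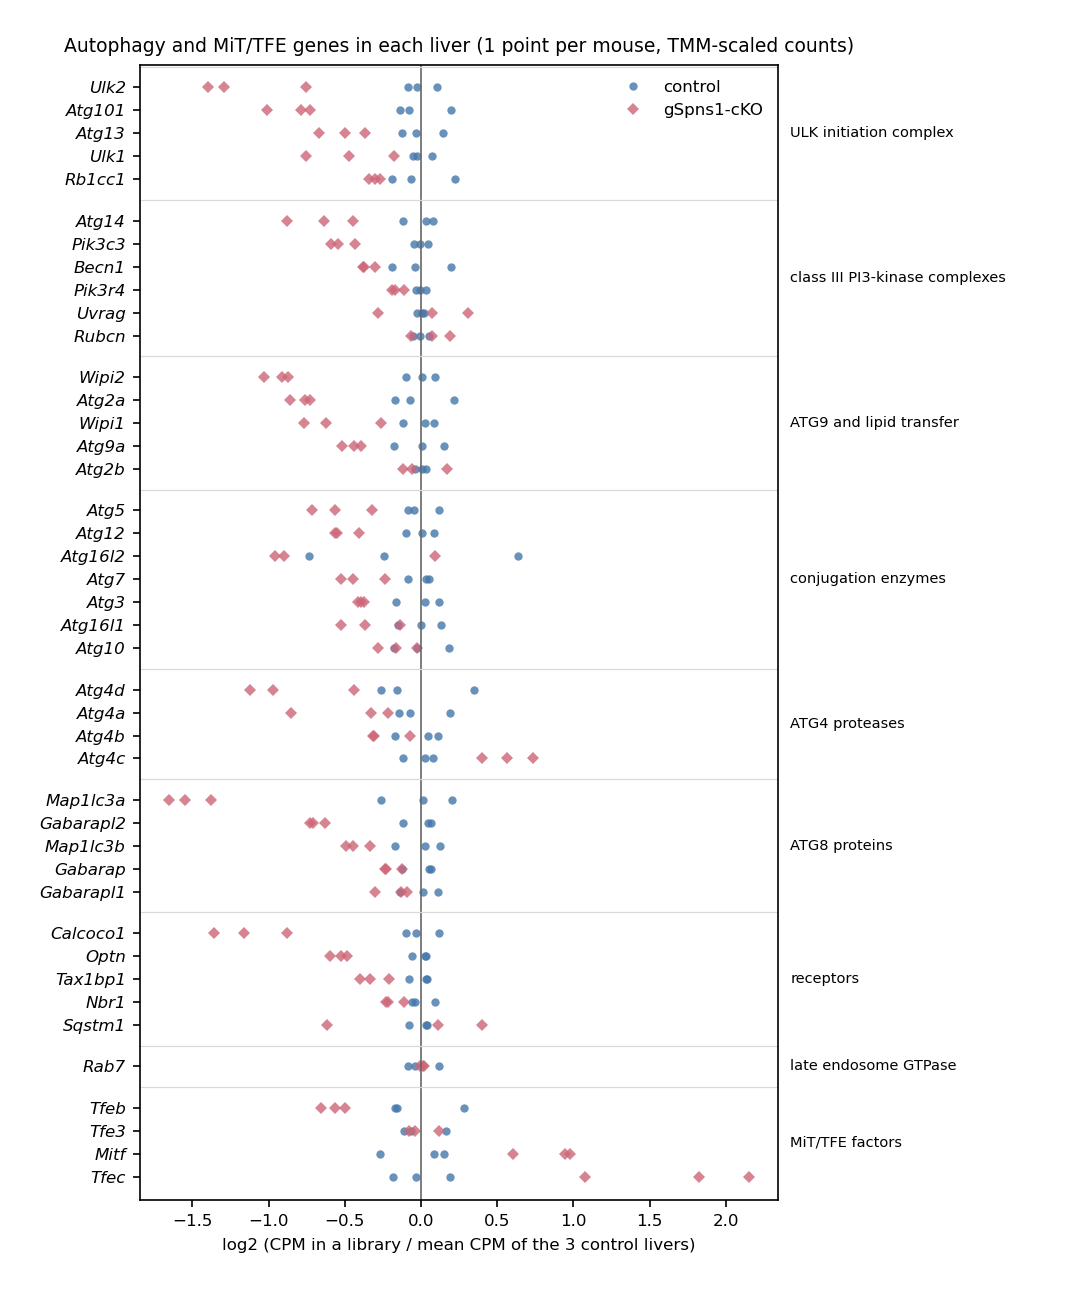
CPM of each of the 42 genes in each liver, divided by the mean CPM of the 3 controls and shown on a log2 axis, with genes grouped by role and 1 point per mouse. The g*Spns1*-cKO points of *Map1lc3a*, *Ulk2* and *Calcoco1* lie farthest to the left, those of *Tfec* and *Mitf* farthest to the right, and those of *Sqstm1* on both sides of the controls.

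The libraries held 30350002 to 35295611 counts, so that even the lowest member, *Tfec*, was counted 26 to 37 times in each control. *Spns1* itself had 35.9, 50.7 and 34.6 CPM in the controls and 17.8, 30.6 and 17.8 CPM in g*Spns1*-cKO livers. The groups did not overlap, and the log2 fold change was -0.87 ± 0.25 (SE, n = 3 per group, edgeR adjusted p = 0.0300), but -0.43 (adjusted p = 0.213) with library size only and -0.74 (adjusted p = 0.0635) with upper-quartile factors. It also missed the threshold without control replicate 2 (-0.68), without g*Spns1*-cKO replicate 1 (-0.74) and without g*Spns1*-cKO replicate 3 (-0.74). The deletion removes exon 3, and the counts cover the whole gene, so RNA that lacks only this exon is still counted. These values therefore do not measure how complete the deletion was. By Western blot, the paper reports less SPNS1 protein in livers of such mice. Markers of several liver cell types differed between the groups. The summed CPM of 10 hepatocyte markers ranged from 107730 to 123979 in controls and from 65209 to 77504 in g*Spns1*-cKO livers. Of these 10, 5 were lower and 0 higher, against 20.5% and 21.3% of all genes tested. With library size only 1 was lower and 1 higher (median log2 fold change -0.066), against 6.28% and 47.2%. *Alb* alone had a mean of 69348 CPM in controls and 41886 CPM in g*Spns1*-cKO livers. The 12 Kupffer cell and macrophage markers summed to 198 to 325 CPM and 774 to 1138 CPM, with 11 of 12 higher, and 12 with library size only. Of the tested cholangiocyte markers 5 of 5 were higher, of the stellate cell and fibroblast markers 5 of 7, of the endothelial markers 5 of 6, of the T, NK and B cell markers 2 of 6 and of the neutrophil markers 4 of 4. With library size only these counts were 5, 7, 6, 3 and 4 in the same order. In the T, NK and B cell list, *Ptprc* (1.79) and *Nkg7* (1.76) passed with TMM, and *Cd3e*, *Cd3g*, *Cd79a* and *Ms4a1* did not. No marker of any list was at 0 in all libraries of a group. The part of these shifts in the members' values was not tested. In whole liver, fewer cells of a type and less RNA per cell cannot be told apart.

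Members were expressed at very different levels in control liver. Per kilobase of the deposited gene length, *Gabarapl1* (180 ± 15.6 RPKM, SD, n = 3) and *Gabarap* (175 ± 12.8 RPKM) were highest, and these neighbours did not differ beyond their spread. They were followed by the receptor gene *Sqstm1* (135 ± 6.24 RPKM), *Rab7* (82.1 ± 6.07 RPKM) and *Map1lc3a* (59.1 ± 9.45 RPKM). At the other end stood *Mitf* (0.368 ± 0.0547 RPKM) and *Tfec* (0.188 ± 0.0250 RPKM). The deposited length covers all annotated exons, 7517 bases for *Map1lc3b* against 1181 for *Map1lc3a*, so levels of genes with long or alternative ends are understated on this scale.

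The CLEAR element contains the letters CACGTG, which read the same on both strands. RefSeq promoters, from 250 bases before to 50 bases after a start site on GRCm38.p6, were matched by symbol for 36 of the 42 members. Some genes have several (32851 promoters for 27025 genes), and a gene was counted if any of its promoters matched. Of these, 5 held CACGTG (13.9%), namely *Atg3*, *Atg5*, *Atg7*, *Atg14* and *Rubcn*, against 8.09% of 27025 genes with a promoter. The longer TCACGTG, which contains CACGTG, was in 4 of them (11.1%, against 4.29%), and CATGTG, a related E-box searched on both strands, in 1 (2.78%, against 15.9%). The FOXO-type motif GTAAACA was in none of the 36 and in 4.05% of all genes. A match describes letters only and is no evidence of binding. Stretches before the start site are shown for the 4 members whose CACGTG, in capitals, lies wholly upstream of it, so that their number and spacing can be compared.

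*Atg3*, chr16:45158695-45158803, plus strand: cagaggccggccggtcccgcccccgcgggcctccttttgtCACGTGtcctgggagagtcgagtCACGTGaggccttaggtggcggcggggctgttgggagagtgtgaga
*Atg7*, chr6:114670924-114671009, plus strand: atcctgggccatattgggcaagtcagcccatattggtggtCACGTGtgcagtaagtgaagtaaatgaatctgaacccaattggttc
*Rubcn*, chr16:32868409-32868494, minus strand: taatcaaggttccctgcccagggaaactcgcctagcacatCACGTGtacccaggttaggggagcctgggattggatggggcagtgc
*Atg5*, chr10:44268285-44268338, plus strand: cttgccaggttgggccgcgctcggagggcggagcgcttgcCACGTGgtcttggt

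*Atg3* carries 2 copies, starting 94 and 71 bases before the start site, *Atg7* has 1 at 132 bases, *Rubcn* 1 at 88 bases and *Atg5* 1 at 14 bases. These distances run to the RefSeq start site of the promoter shown. For *Atg7* and *Rubcn* that start lies inside the gene, whose deposited bounds are chr6:114643097-114860614 and chr16:32821703-32877766. None of the 5 genes with CACGTG was higher in g*Spns1*-cKO livers with TMM, against 21.3% of all genes tested. *Atg14*, *Atg5*, *Atg7* and *Atg3* were lower with TMM, at -0.64, -0.52, -0.40 and -0.39 on the log2 scale, against 20.5% of all genes tested. *Rubcn* was at 0.07 and did not pass the test. Library size only gave none of them as lower and *Rubcn* as higher (0.51), with *Atg3* and *Atg7* both at 0.05. Upper-quartile factors gave only *Atg14* and *Atg5* as lower. *Tfec*, *Mitf* and *Atg4c*, the 3 higher members, had none of these letters in their promoter windows, like most of the 36 members matched. Whether the letters bear on the direction of change was not tested.

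Among the genes of the ULK initiation complex, 4 of 5 were lower with TMM, against 20.5% of all genes tested. The number lower was 2 with library size only (background 6.28%) and 3 with upper-quartile factors (background 14.5%). *Ulk2*, a kinase that acts beside ULK1 at the start of autophagy (mm10, chr11:61775649-61855073, minus strand), had 69.3, 72.2 and 79.0 CPM in the controls and 43.7, 27.9 and 29.99 CPM in g*Spns1*-cKO livers. Every g*Spns1*-cKO liver lay below every control, and g*Spns1*-cKO replicate 1 was the highest of its group. The log2 fold change was -1.12 ± 0.16 (SE, edgeR adjusted p = 0.000608). *Atg101*, which stabilizes ATG13 in the complex, had 52.5, 41.8 and 43.4 CPM in controls and 27.7, 26.6 and 22.7 CPM in g*Spns1*-cKO livers. These groups did not overlap either, with a log2 fold change of -0.84 ± 0.12 (adjusted p = 0.000571). *Atg13* (-0.51) and *Ulk1* (-0.45) were lower by less, and the scaffold gene *Rb1cc1*, which encodes FIP200, had -0.30 and did not pass the test. The antisense gene *4732440D04Rik* overlaps *Rb1cc1*. Of the per-kilobase counts of the 2 kinase genes, *Ulk1* took 69.2 ± 6.11% in g*Spns1*-cKO livers and 58.6 ± 1.96% in controls.

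Such shares within a family are computed inside each library and therefore do not depend on scaling. For 11 families 29 shares were compared by exact two-sided permutation tests, in which 3 mice against 3 cannot go below p = 0.1, and the smallest value after Benjamini-Hochberg adjustment was 0.171. None could pass the threshold. The groups did not overlap for 17 of the 29 shares. No such count for other gene families is given, so this number has no background to be read against. The 29 shares are also not independent, since those of a family are parts of the same sum. *Map1lc3a*, *Gabarap*, *Gabarapl1* and *Gabarapl2* are each counted both in their LC3 or GABARAP branch and in the whole ATG8 family.

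Of the 6 genes of the class III phosphatidylinositol 3-kinase complexes, 3 were lower with TMM (background 20.5%) and 3 did not pass the test. Library size only gave 0 lower (background 6.28%) and 3 higher (background 47.2%). Upper-quartile factors gave 2 lower (background 14.5%). *Atg14*, which directs the kinase to autophagosome formation, had 24.3, 27.9 and 27.0 CPM in controls and 19.4, 17.0 and 14.3 CPM in g*Spns1*-cKO livers. The groups were separate, with a log2 fold change of -0.64 ± 0.13 (edgeR adjusted p = 0.00344). The lipid kinase gene *Pik3c3* (-0.52) and *Becn1* (-0.35) were also lower. For *Uvrag* and *Rubcn*, whose products join Beclin 1 in complexes of the endosome and lysosome, the log2 fold changes were 0.05 and 0.07, and for the regulatory subunit *Pik3r4* it was -0.16, none of them past the threshold. Of the summed level of *Atg14*, *Uvrag* and *Rubcn*, *Atg14* took 50.4 ± 1.81% in controls and 38.7 ± 7.09% in g*Spns1*-cKO livers. The *Rubcn* share, 18.2 ± 0.752% and 22.7 ± 1.28%, was higher in all 3 g*Spns1*-cKO livers, and that of *Uvrag* overlapped between the groups. The part of *Rubcn* that overlaps the opposite-strand gene *Fyttd1* cannot be assigned, since whether counting used strand is not given in the sources used here.

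Among the genes for membrane supply, 4 of 5 were lower with TMM (background 20.5%) and 4 with upper-quartile factors (background 14.5%). Library size only gave 2 lower (background 6.28%) and 1 higher (background 47.2%). *Wipi2*, which reads phosphatidylinositol 3-phosphate and recruits ATG16L1, had 94.1, 101 and 107 CPM in controls and 55.1, 49.3 and 53.6 CPM in g*Spns1*-cKO livers. The spread inside each group was small beside the distance between them, and the log2 fold change was -0.94 ± 0.10 (edgeR adjusted p = 0.000107). *Atg2a*, a lipid transfer protein gene, had 61.0, 74.4 and 57.1 CPM in controls and 35.4, 38.7 and 37.8 CPM in g*Spns1*-cKO livers. It fell by 0.78 ± 0.12 on the log2 scale (adjusted p = 0.000655) without overlap. Its paralog *Atg2b* did not pass the test (0.00 ± 0.11), so that the *Atg2a* share of the pair was 75.8 ± 2.62% in controls and 64.8 ± 1.67% in g*Spns1*-cKO livers. *Wipi1* (-0.54) and *Atg9a* (-0.45), the gene of the scramblase that seeds the membrane, were lower as well, and *Wipi1* took 29.1 ± 1.08% of the *Wipi1* and *Wipi2* sum in controls and 35.02 ± 3.68% in g*Spns1*-cKO livers. *Atg2b* overlaps *Gskip* and *Atg9a* overlaps *Ankzf1* on the opposite strand.

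Of the 7 conjugation genes, 4 were lower with TMM (background 20.5%), none by 1.5-fold. Library size only gave 0 lower (background 6.28%) and 0 higher (background 47.2%), and upper-quartile factors gave 2 lower (background 14.5%). The values that follow are with TMM. *Atg5* (-0.52), *Atg12* (-0.51), the E1-like *Atg7* (-0.40) and the E2-like *Atg3* (-0.39) were lower, and *Atg10* (-0.15), *Atg16l1* (-0.33) and *Atg16l2* (-0.50) did not pass the test. *Atg16l2* varied most of all members between mice, with 13.5 to 34.9 CPM in controls and 11.5 to 23.9 CPM in g*Spns1*-cKO livers, and it overlaps *Fchsd2* on the opposite strand.

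The ATG4 proteases, which trim ATG8 proteins before conjugation and release them afterwards, went in both directions. *Atg4c* had 14.2, 12.9 and 14.7 CPM in controls and 18.4, 23.2 and 20.6 CPM in g*Spns1*-cKO livers. All 3 g*Spns1*-cKO livers were above all controls, with a log2 fold change of 0.58 ± 0.13 (edgeR adjusted p = 0.00482). *Atg4d* had 34.8, 52.9 and 37.3 CPM in controls and 21.2, 30.7 and 19.2 CPM in g*Spns1*-cKO livers. Replicate 2 was the highest in each group, the groups did not overlap, and the log2 fold change was -0.82 ± 0.22 (adjusted p = 0.0181). *Kri1* overlaps the gene on the opposite strand. *Atg4a* (-0.44) and *Atg4b* (-0.23), which *Thap4* overlaps on the opposite strand, did not pass the test. *Atg4c* made up 22.4 ± 2.77% of the family in controls and 37.8 ± 3.68% in g*Spns1*-cKO livers, and *Atg4d* 30.5 ± 5.16% and 19.8 ± 4.41%.

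The ATG8 genes encode the proteins that coat the autophagosome membrane. *Map1lc3a* (chr2:155276297-155278073, plus strand) had 58.3, 80.6 and 70.5 CPM in controls and 23.8, 26.8 and 22.2 CPM in g*Spns1*-cKO livers. The lowest control was more than any g*Spns1*-cKO liver, and the fall of 1.52 ± 0.14 on the log2 scale (edgeR adjusted p = 3.32e-05), or 2.87-fold, was the largest fall among the members. *Map1lc3b*, whose product LC3B is the usual autophagosome marker, had 150, 184 and 172 CPM in controls and 124, 134 and 120 CPM in g*Spns1*-cKO livers. Those groups were separate but closer, at -0.42 ± 0.12 (adjusted p = 0.0162), and the sign depended on scaling, at 0.02 with library size only. *Zcchc14* overlaps this gene on the opposite strand. At the protein level, the paper reports a slight, significant increase of LC3B-II in livers of g*Spns1*-cKO mice, which RNA counts do not measure.

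In the GABARAP branch, *Gabarapl2* had 58.8, 51.6 and 57.9 CPM in controls and 36.3, 33.8 and 34.4 CPM in g*Spns1*-cKO livers. It was lower in every g*Spns1*-cKO liver, with a log2 fold change of -0.69 ± 0.10 (edgeR adjusted p = 0.000526). *Gabarap* had 295, 335 and 337 CPM in controls and 274, 296 and 276 CPM in g*Spns1*-cKO livers, and *Gabarapl1* had 330, 367 and 393 CPM and 295, 331 and 341 CPM. Both overlapped between the groups and did not pass the test, at -0.19 ± 0.12 (adjusted p = 0.226) and -0.17 ± 0.13 (adjusted p = 0.318). Within the ATG8 family, *Map1lc3a* went from 12.8 ± 1.30% to 5.63 ± 0.459%, *Gabarapl1* from 39.1 ± 1.06% to 43.8 ± 1.93% and *Gabarap* from 38.0 ± 0.289% to 41.9 ± 1.14%, each without overlap between the groups.

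**Figure D2:**
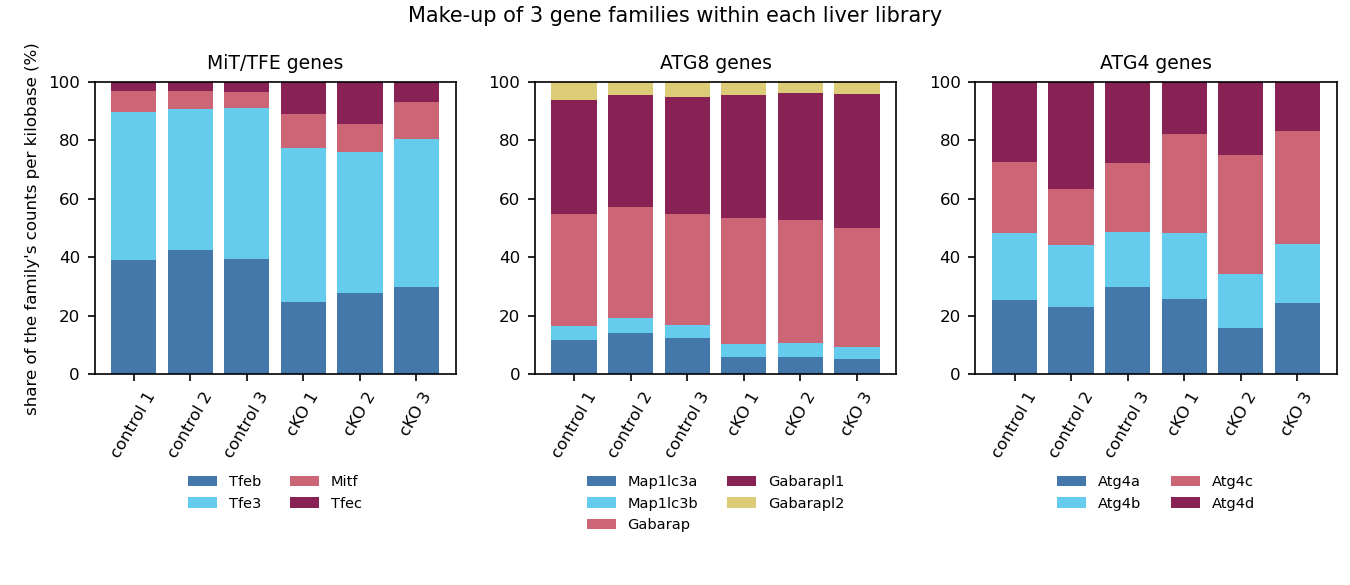
Share of each gene in its family's counts per kilobase (%), stacked to 100 in each of the 6 libraries, for the MiT/TFE, ATG8 and ATG4 genes. *Tfeb* takes 39.2 to 42.6% of the MiT/TFE sum in controls and 24.8 to 29.8% in g*Spns1*-cKO livers, while the segments of *Mitf*, *Tfec* and *Atg4c* are larger in every g*Spns1*-cKO liver.

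Among the cargo receptors, *Calcoco1*, a receptor gene for autophagy of the endoplasmic reticulum, had 51.4, 57.2 and 49.2 CPM in controls and 23.5, 28.6 and 20.6 CPM in g*Spns1*-cKO livers. The groups lay far apart, with a log2 fold change of -1.12 ± 0.13 (edgeR adjusted p = 0.000159). *Optn* (-0.53), a receptor of damaged mitochondria, and *Tax1bp1* (-0.31) were lower, and *Nbr1* (-0.18) did not pass the test. *Calcoco1* supplied 4.28 ± 0.290% of the receptors' sum in controls and 2.29 ± 0.960% in g*Spns1*-cKO livers.

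*Sqstm1* encodes p62, the ubiquitin-binding receptor that is itself degraded by autophagy. It had 463, 465 and 428 CPM in controls and 597, 295 and 489 CPM in g*Spns1*-cKO livers. The controls were close together, whereas g*Spns1*-cKO replicates 1 and 3 lay above all of them and replicate 2 below. The coefficient of variation was 4.64% in controls and 33.2% in g*Spns1*-cKO livers, against medians over the members of 7.80% and 9.33%. The log2 fold change was 0.03 ± 0.22 (edgeR adjusted p = 0.935). It was 0.26 without g*Spns1*-cKO replicate 2 and -0.21 without g*Spns1*-cKO replicate 1, and neither passed the test. *Rab7*, the late endosome GTPase, had 202 to 232 CPM in controls and 214 to 217 CPM in g*Spns1*-cKO livers, with a log2 fold change of 0.01 ± 0.11.

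The 4 MiT/TFE genes diverged. *Tfeb* (chr17:47737030-47792419, plus strand) had 12.0, 16.5 and 12.1 CPM in controls and 8.62, 9.17 and 9.59 CPM in g*Spns1*-cKO livers. No g*Spns1*-cKO liver reached the lowest control, control replicate 2 was the highest of all, and the log2 fold change was -0.57 ± 0.15 (edgeR adjusted p = 0.0136). With library size only it was -0.13, which did not pass the test. *Tfe3* had 25.3, 30.5 and 26.0 CPM in controls and 29.7, 25.8 and 26.6 CPM in g*Spns1*-cKO livers, which overlapped (0.00 ± 0.12, adjusted p = 0.987).

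*Mitf*, known for its role in melanocytes and also expressed in macrophages and osteoclasts, was counted 68, 78 and 48 times in controls and 162, 133 and 173 times in g*Spns1*-cKO livers, or 1.90 to 2.53 CPM and 3.47 to 4.50 CPM. The groups did not overlap, and the log2 fold change was 0.85 ± 0.22 (edgeR adjusted p = 0.0121). *Tfec*, a family member best known from macrophages (chr6:16833373-16898441, minus strand), was counted 26, 37 and 26 times in controls and 134, 179 and 87 times in g*Spns1*-cKO livers, or 0.925, 1.20 and 1.03 CPM and 3.72, 4.67 and 2.21 CPM. Every g*Spns1*-cKO liver lay above every control, with the widest spread among the g*Spns1*-cKO livers, and the log2 fold change was 1.74 ± 0.32 (adjusted p = 0.00176). The summed macrophage markers stood at 1138, 774 and 828 CPM in g*Spns1*-cKO replicates 1, 2 and 3, and at 198, 257 and 325 CPM in the controls. The part of macrophage RNA in the levels of *Tfec* and *Mitf* was not tested.

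Per kilobase, the 4 genes together reached 5.89 ± 0.810 RPKM in controls and 5.86 ± 0.231 RPKM in g*Spns1*-cKO livers with TMM. *Tfeb* supplied 40.4 ± 1.93% of the sum in controls and 27.5 ± 2.52% in g*Spns1*-cKO livers, *Mitf* 6.28 ± 0.833% and 11.4 ± 1.51%, and *Tfec* 3.19 ± 0.165% and 10.7 ± 3.70%, each without overlap. *Tfe3* supplied 50.2 ± 1.74% and 50.4 ± 2.17% and was the largest of the 4 in every library.

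**Figure D3:**
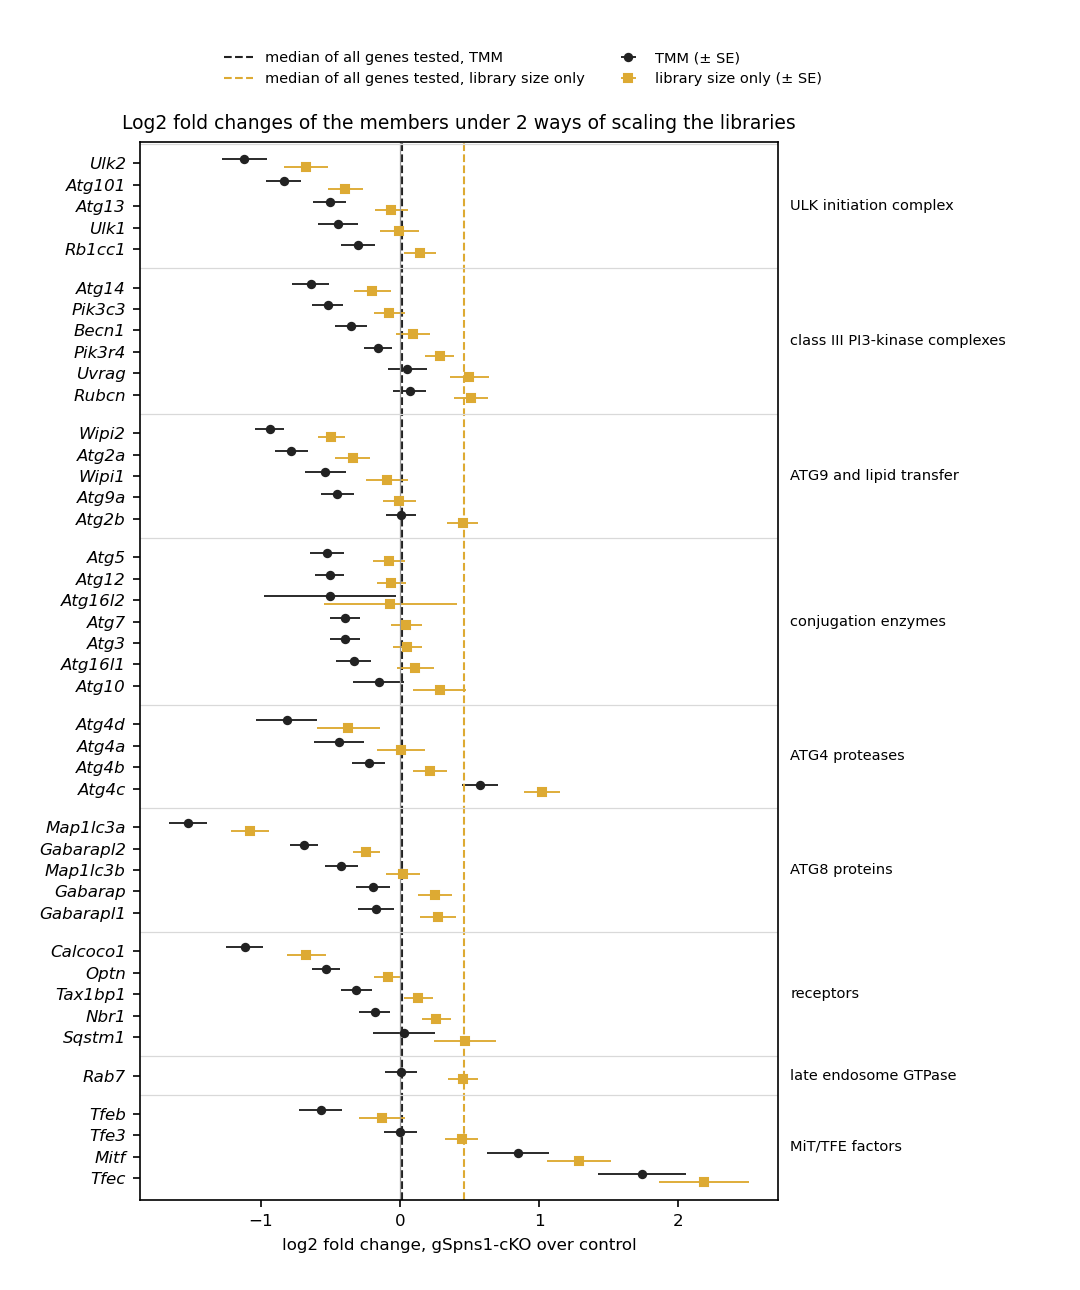
Log2 fold change ± SE of each member (g*Spns1*-cKO over control) with TMM (black circles) and with library size only (yellow squares), with dashed lines at the medians of all genes tested, 0.014 and 0.46. Each member moves by nearly the same amount as its dashed line, and *Map1lc3a*, *Ulk2*, *Calcoco1* and *Wipi2* stay left of 0 under both scalings while *Tfec*, *Mitf* and *Atg4c* stay right of it.

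Other genes of the pathway were grouped into 5 lists chosen by function. Their counts are read beside the shares over all genes tested, which were 21.3% higher and 20.5% lower with TMM, 47.2% and 6.28% with library size only, and 26.6% and 14.5% with upper-quartile factors. Of 43 tested lysosome genes reported to carry CLEAR elements, 23 were higher and 1 was lower, with a median log2 fold change of 0.37, against 3 higher and 23 lower among the 42 members. With library size only 35 were higher and 0 lower (median 0.81), and with upper-quartile factors 29 were higher and 0 lower (median 0.50). *Gpnmb*, a glycoprotein of stressed lysosomes and of macrophages, had 0.320, 1.17 and 0.277 CPM in controls and 64.2, 69.9 and 77.1 CPM in g*Spns1*-cKO livers, for a fitted log2 fold change of 6.84. The tetraspanin gene *Cd63* was at 5.29 and the proton pump subunit gene *Atp6v0d2* at 2.79. Several of these are abundant in macrophages, whose markers were higher as given above, and the part of these cells was not tested.

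Of 31 tested nutrient-sensing genes upstream of ULK1 and the MiT/TFE factors, 8 were higher and 9 lower (median 0.03), which is near the shares over all genes. *Mcoln1* (0.34, higher) was in both this list and that of the lysosome genes. The list name gives a place in the pathway, and whether the MiT/TFE factors act on these genes in turn was not tested. With library size only 18 were higher and 0 lower (median 0.47), and with upper-quartile factors 10 were higher and 5 lower (median 0.16). *Rragd*, one of the RAG GTPase genes, which recruit mTORC1 and the MiT/TFE proteins to the lysosome, had 2.03, 1.53 and 2.02 CPM in controls and 76.2, 44.7 and 59.7 CPM in g*Spns1*-cKO livers. The groups were widely separate, with a log2 fold change of 5.02 ± 0.23 (edgeR adjusted p = 1.87e-06). *Foxo3* (-0.76) was lower, and *Lamtor3* (0.75), of the Ragulator scaffold, and *Prkab2* (0.75), an AMPK subunit, were higher.

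Further initiation and membrane genes numbered 14 tested, with 1 higher and 3 lower (median 0.12). These counts were 9 higher and 2 lower with library size only (median 0.56), and with upper-quartile factors 6 were higher and 3 lower (median 0.25). *Trp53inp2*, whose product binds ATG8 proteins, was at -1.51, *Wdr45* at -0.87 and *Wdr45b*, both relatives of the WIPI genes, at -0.57, while *Bcl2*, an inhibitor of Beclin 1, was at 1.54. Among 16 genes of fusion with the lysosome, 1 was higher, *Rab7b* (2.12), and 2 were lower, *Vamp8* (-0.50) and *Ykt6* (-0.29), with a median of -0.058. Of these genes 10 were higher and 0 lower with library size only (median 0.39), and with upper-quartile factors 4 were higher and 1 lower (median 0.074). Of 17 genes of selective autophagy 3 were higher and 8 lower (median -0.32), but 5 were higher and 0 lower with library size only (median 0.13), and 4 were higher and 5 lower with upper-quartile factors (median -0.19). The glycogen receptor gene *Stbd1* was at -0.85 and *Phb2* at -0.59, and the endoplasmic reticulum receptor gene *Retreg1* was at 0.76 and the mitochondrial receptor gene *Fundc1* at 0.69.

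**Figure D4:**
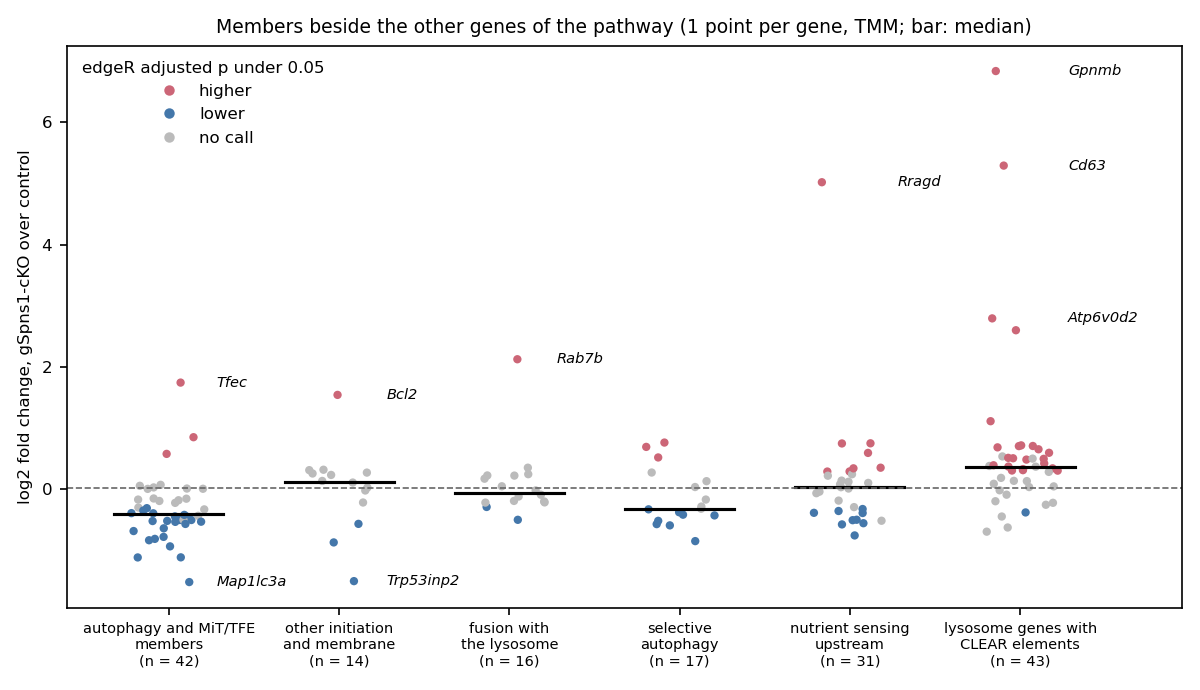
Log2 fold change (g*Spns1*-cKO over control, TMM) of each tested gene in the 42 members and the 5 other lists, 1 point per gene, coloured by the edgeR call, with a bar at each list's median and a dashed line at the median of all genes tested. Most members lie below the dashed line, most lysosome genes with CLEAR elements above it, and *Gpnmb*, *Cd63* and *Rragd* stand far above the rest.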

How the data were processed

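The authors deposited whole-number counts per gene for the liver libraries of 3 g*Spns1*-cKO and 3 control mice, 1 library per mouse without pooling. The submitters' processing notes name fastp, HISAT2 2.0.5, featureCounts 1.5.0-p3 and mm10; the strand setting is not given in the sources used here. The 6 deposited FPKM columns and the authors' own comparison (group signals, fold changes, p-values) were not used. The 42 members and all lists were chosen with earlier results of these data known. Groups came from the sample labels.

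Counts were fitted in R 4.3.3 with edgeR 4.0.16 (filterByExpr, TMM, robust quasi-likelihood test, no covariate) over 15449 genes, with Benjamini-Hochberg adjustment and a threshold of 0.05. The SE is the log2 fold change divided by the square root of F. CPM and RPKM use TMM-scaled library sizes, and RPKM the gene length the authors deposited with the counts. Values are mean ± SD or fold change ± SE, n = 3 per group. Values in each library were given for members past the threshold with a fold of at least 1.5, the MiT/TFE, LC3 and GABARAP genes and *Sqstm1*. From each other list the 4 largest changes past the threshold were named. One gene that this rule selects is not reported here. *Atg4c*, the coefficient of variation of *Sqstm1* and the range of *Atg16l2* were added after their values were seen. Genes that overlap a member and have at least 2% of its counts are named beside it.

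Libraries held 30350002 to 35295611 counts, which carry no molecular identifiers, so depth bounds counting error only. Libraries of a group differed by 38.8 to 114 chi-square units per gene, more than sampling noise. Controls were littermates per the study's methods, but no source used here ties single mice to a litter. Alternatives were DESeq2 1.42.0, limma-voom 3.58.1, library size only, upper-quartile factors, 2 other filters (a minimum of 10 counts in each library, or of 1 count in 1 or more), a threshold of 0.01, a replicate block and leaving out each library. Scripts were tested on simulated counts with few genes changed, equally many up and down, so that this test did not probe the choice of scaling.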

Additional observations from a re-analysis of the deposited data

How the results depend on the processing

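The count of 26 members past the threshold (23 lower, 3 higher) was 15 with library size only (6 lower, 9 higher) and 15 at a threshold of 0.01 (13 lower), and between 17 and 25 when 1 library was left out (15 to 22 lower, 2 to 3 higher). The lowest counts, 17 with 15 lower, came without g*Spns1*-cKO replicate 3. DESeq2 and limma-voom each gave 23 lower and 3 higher. The members' median became 0.033 with library size only and -0.28 with upper-quartile factors. Set against the median of all genes tested, it was -0.57 with DESeq2 and -0.56 with the filter of 1 count in any library, and -0.26 beside genes of at least 10 CPM, a comparison chosen after seeing the data. Among the members of at least 10 CPM, also counted after seeing the data, 23 were lower and 1 was higher, because *Mitf* and *Tfec* lie below that level.

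With library size only the log2 fold change changed sign for *Atg3* (0.051), *Atg4a* (0.0063), *Atg4b* (0.21), *Atg7* (0.045), *Atg10* (0.29), *Atg16l1* (0.11), *Becn1* (0.091), *Pik3r4* (0.29), *Rb1cc1* (0.14), *Map1lc3b* (0.022), *Gabarap* (0.25), *Gabarapl1* (0.27), *Nbr1* (0.26) and *Tax1bp1* (0.13), by the construction of that scaling, and the median of the fusion list was 0.39 with library size only and 0.074 with upper-quartile factors, that of selective autophagy 0.13. Members near 0 changed sign elsewhere. *Atg2b* was at -0.0041 with DESeq2, -0.00026 with limma-voom and -0.0028 with the filter of 1 count in any library. *Rab7* was at -0.00032 and *Tfe3* at -0.0059 with DESeq2, and *Tfe3* at -0.0044 with that filter. *Sqstm1* was at -0.029 with limma-voom. With 1 library left out, *Atg2b* ran from -0.087 to 0.059, *Uvrag* from -0.094 to 0.19, *Sqstm1* from -0.21 to 0.26, *Rab7* from -0.047 to 0.058 and *Tfe3* from -0.063 to 0.085.

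The samples share replicate numbers only: the correlations of deviations from the group means for same-numbered mice were 0.078, 0.024 and 0.0093, and not every sample correlated best with its own number. With the replicate number as a block, 27 members passed (24 lower, 3 higher), and *Sqstm1* was at -0.030 and *Atg2b* at -0.00012. The number of shares without overlap was 17 to 21 with 1 library left out and 18 from counts not divided by length. With 3 mice a group, no share could pass a permutation test, and *Mitf* and *Tfec* rest on 26 to 179 counts a library.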

Other observations

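*Srxn1*, a target of the oxidative stress factor NRF2 chosen for its values after *Sqstm1* was seen to spread between mice, had 44.4, 45.2 and 38.6 CPM in controls and 111, 44.1 and 91.6 CPM in g*Spns1*-cKO livers, and did not pass the test (edgeR adjusted p = 0.0675). *Slc7a11*, the cystine transporter gene, had 1, 0 and 0 counts in controls and 102, 25 and 125 counts in g*Spns1*-cKO livers. In both genes, as in *Sqstm1*, g*Spns1*-cKO replicate 2 was the lowest of its group. It was also the lowest for *Gclm*, *Gclc*, *Txnrd1* and *Keap1*, but *Atf4* was highest there, with 127, 135 and 133 CPM in g*Spns1*-cKO replicates 1, 2 and 3, and *Nfe2l2* lay between the others. *Gclm*, *Gclc*, *Txnrd1*, *Keap1*, *Atf4* and *Nfe2l2* did not pass the test with TMM. *Hmox1* and *Nqo1* did not share this spread, with 56.3, 55.6 and 55.6 CPM for *Hmox1* and 17.6, 18.4 and 21.1 CPM for *Nqo1* in g*Spns1*-cKO livers, all above the controls at 12.3 to 17.4 and 4.45 to 7.97 CPM. All genes set beside *Sqstm1* here were chosen after their values were seen. The share of all genes tested with their lowest value in g*Spns1*-cKO replicate 2 was not counted. The pattern therefore has no background to be read against.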
